A study of Mus musculus with 30 samples.

Results

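The transcripts described here are messenger RNAs of the mouse mitochondrial genome. The list held 10 of them, chosen by gene symbol: *mt-Nd1*, *mt-Nd2*, *mt-Nd3*, *mt-Nd4*, *mt-Nd5*, *mt-Cytb*, *mt-Co1*, *mt-Co2*, *mt-Co3* and *mt-Atp6*. Of the 14173 genes in the count tables, 7 were members of the list, and *mt-Co2*, *mt-Co3* and *mt-Atp6* were not analysed here. A further 14 mitochondrially encoded genes were in the tables, comprising *mt-Nd6*, 2 ribosomal RNAs and 11 transfer RNAs. RNA came from whole liver of 30 male C57BL6/J mice, 6 on each of 5 diets, with 1 library per mouse. All mice were 6 months old after 12 weeks on their diet and had been without food for 4 h when tissue was taken. Cas-20% was a control diet with 20% casein, the main milk protein, holding 0.57 gm% methionine and 0.41 gm% cysteine, and Cas-5% held 5% casein with 0.15 and 0.1 gm%. Soy-20% held 20% soy protein with 0.22 gm% of each of these sulfur amino acids (SAA), Soy-20% + SAA was the same protein with added sulfur amino acids to 0.58 and 0.41 gm%, and Soy-10% held 11.5% soy protein with 0.13 gm% of each. Before the switch at 12 weeks of age the casein groups had shared the Cas-20% diet and the soy groups the Soy-20% diet, so an arm also differs in what its mice ate earlier. The supplemented soy diet matches the sulfur amino acids of Cas-20% at the same protein level, Soy-10% comes close to those of Cas-5%, and Soy-20% is the soy control without added sulfur amino acids.

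Mitochondria keep a small circular genome that is copied and transcribed inside the organelle. It encodes core subunits of the respiratory chain, whose remaining subunits come from nuclear genes, together with the ribosomal and transfer RNAs used to translate them. Transcription runs through long precursors from each strand, and the transfer RNAs that lie between the coding genes are cut out to release the messenger RNAs, which then receive poly(A) tails. Several of these messengers end in an incomplete stop codon that the tail completes. Liver is rich in mitochondria, which take part in amino acid breakdown, urea synthesis, fatty acid oxidation and gluconeogenesis.

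These libraries were made by a 3′ method meant to prime at poly(A) tails, so a read is taken to count the 3′ end of a transcript. Whether every read was primed at a tail was not examined, and mitochondrial transfer RNAs were counted too. The annotated ends of the 7 genes are given 5′ to 3′ on the plus strand of GRCm38, and capitals mark the encoded bases of the stop codon. Where the tail of each messenger begins was not examined, so these bases need not lie next to the priming site. Sequences are from GENCODE M21, and for all 7 genes the deposited coordinates equal those of that release.
mt-Nd1, gene chrM:2751-3707, shown chrM:3658-3707: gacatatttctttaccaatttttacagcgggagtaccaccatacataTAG
mt-Nd2, gene chrM:3914-4951, shown chrM:4902-4951: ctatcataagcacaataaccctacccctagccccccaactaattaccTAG
mt-Co1, gene chrM:5328-6872, shown chrM:6823-6872: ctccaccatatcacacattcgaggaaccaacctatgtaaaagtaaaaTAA
mt-Nd3, gene chrM:9459-9806, shown chrM:9757-9806: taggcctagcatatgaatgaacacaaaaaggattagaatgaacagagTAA
mt-Nd4, gene chrM:10167-11544, shown chrM:11495-11544: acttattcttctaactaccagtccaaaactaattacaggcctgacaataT
mt-Nd5, gene chrM:11742-13565, shown chrM:13516-13565: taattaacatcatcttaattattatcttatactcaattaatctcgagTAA
mt-Cytb, gene chrM:14145-15288, shown chrM:15239-15288: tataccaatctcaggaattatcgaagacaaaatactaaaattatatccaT
As annotated, *mt-Nd4* and *mt-Cytb* carry only 1 encoded base of their stop codon. The last bases of *mt-Nd1*, which ends at 3707, also belong to the transfer RNA gene *mt-Ti*, which starts at 3706. Those of *mt-Nd2*, which ends at 4951, also belong to *mt-Tw*, which starts at 4950. All 7 genes lie on the plus strand without introns, and the GC content of their last 200 bases ran from 30.0% for *mt-Nd3* and 31.5% for *mt-Nd5* through 34.0% for *mt-Nd4*, 35.0% for *mt-Nd2* and 35.5% for *mt-Co1* to 36% for *mt-Nd1* and *mt-Cytb*, against a median of 40% for nuclear genes.

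Libraries held between 7694015 and 14565542 counts. The hepatocyte markers were all present, with 9 of 9 in the table and a summed level of 68638 to 99038 CPM (counts scaled to the same library total) over the livers. Of the 30 libraries, 4 stood apart: in Soy-20% + SAA livers 3, 4, 5 and 6 the counts of nuclear genes, taken relative to each gene's mean over the 30 libraries, rose with the GC content of the 3′ end. The slopes were 0.062, 0.196, 0.186 and 0.215 on the log2 scale per 10 percentage points, against -0.064 to 0.027 in the other 26. In the comparisons of 2 diets that include Soy-20% + SAA, the count of members called with edgeR is therefore also given without these 4 libraries, which leaves 2 control livers. The pancreatic acinar markers summed to 757 CPM in 1 Soy-10% liver and to at most 55.7 in all livers of the other diets.

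The 7 transcripts made up a large part of every library. They summed to between 9.12% and 15.1% of all counts, with a median of 12.2%, and all mitochondrially encoded genes together summed to between 13.02% and 23.6%. Among all genes ranked by mean count, *mt-Nd4* came in position 2, *mt-Nd2* in position 4, *mt-Cytb* in position 5 and *mt-Nd1* in position 9, while *mt-Nd5*, *mt-Co1* and *mt-Nd3* came in positions 48, 55 and 850. These are ranks of reads and not of molecules, since priming at the tail can differ between transcripts and reads shared with nuclear copies, described below, may have been left out. Of the counts of the 7 transcripts, 34.7% on average belonged to *mt-Nd4*, 25.4% to *mt-Nd2*, 24.8% to *mt-Cytb* and 12.0% to *mt-Nd1*, which left 1.60% for *mt-Nd5*, 1.397% for *mt-Co1* and 0.122% for *mt-Nd3*. *mt-Nd3* had at least 133 counts in each liver and the other 6 had at least 9198.

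The summed share of the library was lowest on Cas-5%. It was 13.75% ± 1.22 (SD, n = 6) on Cas-20%, with livers from 11.81% to 15.1%, and 10.5% ± 1.02 (SD, n = 6) on Cas-5%, with livers from 9.12% to 11.75%. All 6 Cas-5% livers lay below all 6 Cas-20% livers. On the soy diets it was 13.1% ± 1.01 (SD, n = 6) with Soy-20%, 12.8% ± 1.04 (SD, n = 6) with Soy-20% + SAA and 11.75% ± 0.639 (SD, n = 6) with Soy-10%. The ranges of the 3 soy diets overlapped, from 11.9% to 14.3%, from 11.4% to 13.9% and from 10.7% to 12.5% in that order. The sum is mostly *mt-Nd4*, *mt-Nd2*, *mt-Cytb* and *mt-Nd1*, so *mt-Nd5*, *mt-Co1* and *mt-Nd3* hardly enter it, and it was not tested as a score.

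**Figure D1:**
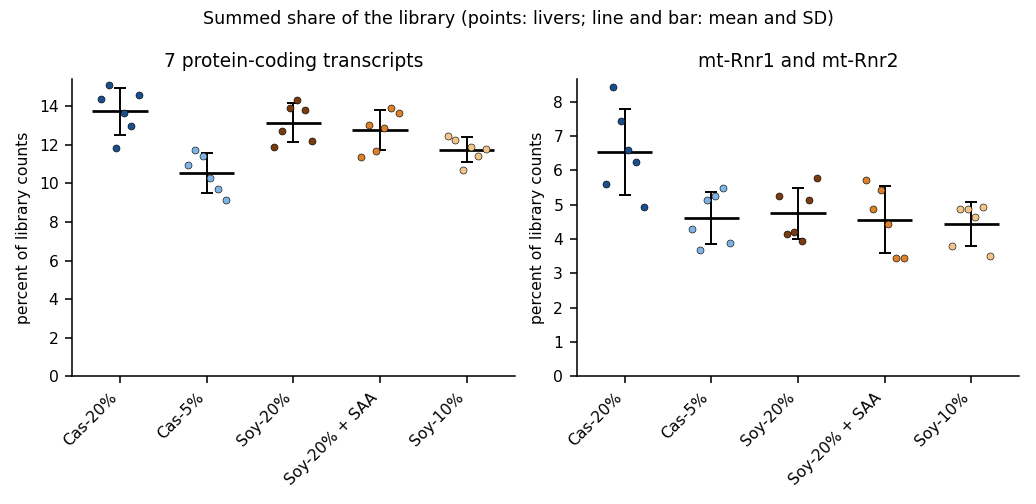
Share of each library's counts, in percent, taken by the 7 protein-coding transcripts (left) and by *mt-Rnr1* and *mt-Rnr2* (right) on the 5 diets, with points for livers, lines for means and bars for SD. All Cas-5% livers sit below the lowest Cas-20% liver in the left panel, from 9.12% to 11.75% against 11.81% to 15.1%.

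Casein restriction lowered most of these transcripts. With edgeR, 6 of the 7 were lower on Cas-5% than on Cas-20% at an adjusted p of 0.05 or less, where 24.9% of 12076 genes tested passed and 13.3% passed as lower. The 7 log2 fold changes ran from -0.81 to -0.42 with a median of -0.63, beside a median of 0.02 over all genes. For 5 of the 7 the livers of both diets did not overlap in normalized counts (counts divided by a size factor per library), against 12.9% of genes with a mean of at least 10 counts. As shares of the library only *mt-Nd5* and *mt-Co1*, 2 of the 7, had no overlap, where 17.5% of those genes had none. In whole-liver RNA, fewer cells of a type and less RNA per cell cannot be told apart, and the same holds here for fewer mitochondrial genomes and less RNA from each.

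The subunits of complex I, which passes electrons from NADH to ubiquinone, are the most numerous among the members. *mt-Nd1*, part of the membrane arm next to the ubiquinone site, had 148, 175 and 227 kilocounts (1000 normalized counts each, given for the lowest, median and highest liver) on Cas-20% and 119, 132 and 145 kilocounts on Cas-5%. It fell by 0.43 on the log2 scale (SE 0.102, adjusted p = 0.00488). *mt-Nd2*, a core subunit of the same arm, had 349, 403 and 529.8 kilocounts on Cas-20% and 173, 268 and 309 kilocounts on Cas-5%. It fell by 0.66 (SE 0.138, adjusted p = 0.00198). In both genes the highest Cas-5% liver stayed below the lowest Cas-20% liver in normalized counts. As shares of the library the ranges overlapped, at 1.313% to 1.88% on Cas-20% and 1.216% to 1.477% on Cas-5% for *mt-Nd1*, and at 3.179% to 4.391% and 1.783% to 3.18% for *mt-Nd2*.

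*mt-Nd4*, a proton-pumping subunit, had 405, 508 and 557 kilocounts on Cas-20% and 322, 332 and 418 kilocounts on Cas-5%. It fell by 0.47 (SE 0.111, adjusted p = 0.00495), although 1 Cas-5% liver reached into the Cas-20% range, and as a share of the library it took 3.583% to 4.932% on Cas-20% and 3.213% to 4.123% on Cas-5%. *mt-Nd5*, another proton-pumping subunit, had 24.7, 28.3 and 31.45 kilocounts on Cas-20% and 14.2, 17.9 and 19.2 kilocounts on Cas-5%. It fell by 0.67 (SE 0.086, adjusted p = 2.72e-05), with no overlap between the diets in normalized counts or as a share of the library (0.219% to 0.2637% against 0.1462% to 0.1889%). *mt-Nd3*, a small membrane subunit, had 1233, 2124 and 3362 normalized counts on Cas-20% and 1040, 1575 and 2283 on Cas-5%. Its log2 fold change was -0.42 (SE 0.203, adjusted p = 0.145), and the ranges overlapped. It passed the test in 1 of 12 fits that left out a single liver, that without Cas-20% liver 3 (-0.55, adjusted p = 0.0337).

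*mt-Cytb*, the only subunit of complex III encoded in mitochondria, had 336, 418 and 498 kilocounts on Cas-20% and 229, 249 and 323 kilocounts on Cas-5%. It fell by 0.63 (SE 0.117, adjusted p = 0.00075). *mt-Co1*, the catalytic core of complex IV, where oxygen is reduced, had 20.3, 23.4 and 30.5 kilocounts on Cas-20% and 11.8, 13.9 and 15.2 kilocounts on Cas-5%. It fell by 0.81 (SE 0.1, adjusted p = 1.77e-05), which is 1.75-fold lower and the largest change among the members. Neither gene overlapped between the casein diets in normalized counts. As a share of the library *mt-Co1* still did not, at 0.1798% to 0.253% on Cas-20% and 0.1195% to 0.1519% on Cas-5%, while *mt-Cytb* did, at 2.978% to 4.4% and 2.355% to 3.301%.

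The number of members lower on Cas-5% was 6 under library totals, DESeq2, a scaling without mitochondrially encoded genes, a fit without the filter and the fit of all 30 livers. Of all genes 38.6% passed under library totals, 25.3% with DESeq2, 25% with that scaling and 24.6% in the 30-liver fit. Library totals moved the median of all genes to 0.20, and on that scaling the changes of the 6 were smaller, from -0.62 for *mt-Co1* to -0.25 for *mt-Nd1*. The red blood cell markers moved with the diet, with 4 of 5 lower on Cas-5% and a summed level of 1134 to 2041 CPM against 1393 to 3087 on Cas-20%. Of the 6 stellate cell markers 2 were higher on Cas-5% (467 to 619 against 341 to 469 CPM), as were 2 of 6 endothelial markers (286 to 319 against 220.4 to 259). Of the 9 hepatocyte markers 2 were higher and 2 lower, with a summed level of 82474 to 99038 against 68638 to 76783 CPM. Of the 9 Kupffer cell markers none passed (331 to 463 against 267 to 423 CPM), 1 having an unadjusted p under 0.05. Of 2 cholangiocyte markers tested none passed, 1 having an unadjusted p under 0.05, and the 1 acinar marker tested was lower. No marker of the first 5 lists was at 0 throughout a diet, and their part in the result was not tested.

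**Figure D2:**
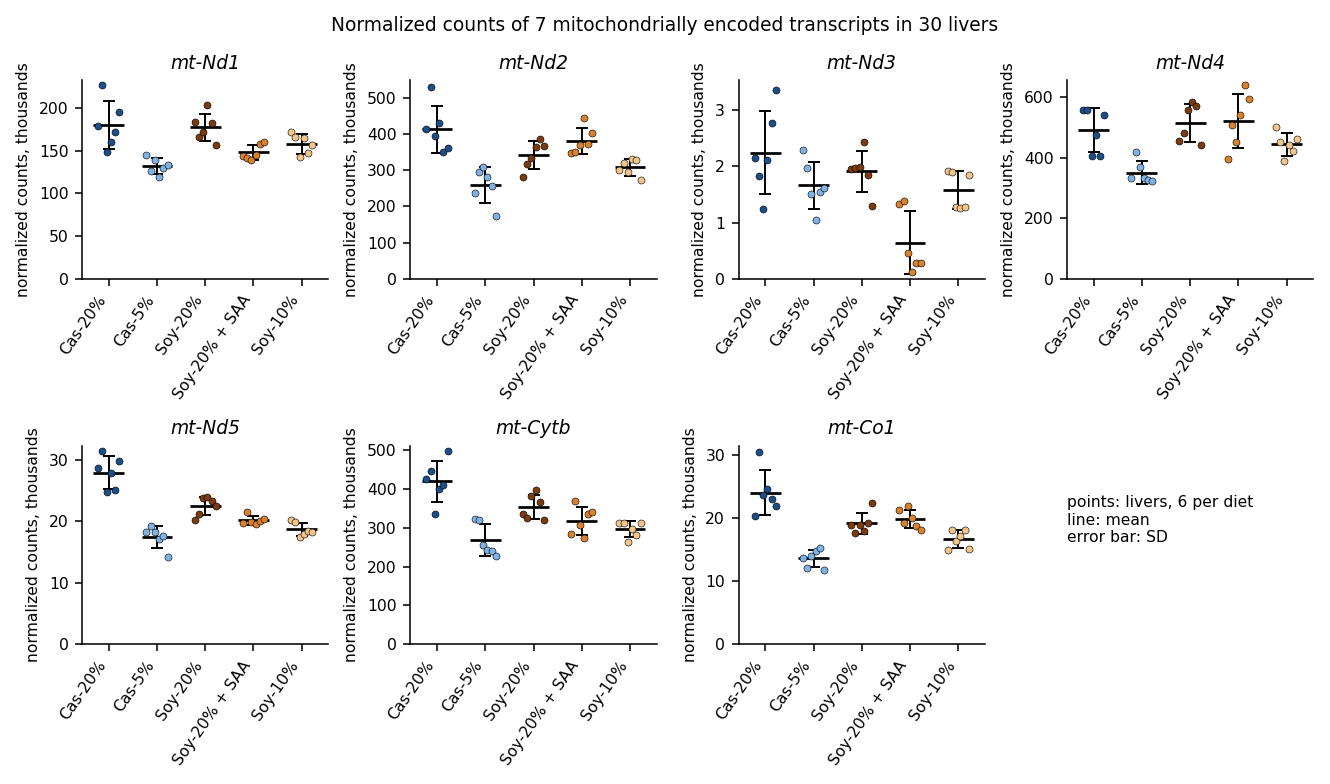
Normalized counts (y axis, in units of 1000) of the 7 transcripts by diet, with points for the 6 livers of a diet, lines for means and bars for SD. The Cas-5% mean is lowest for all but *mt-Nd3*, in which 4 Soy-20% + SAA livers lie between 127.5 and 451 normalized counts.

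Soy restriction against the supplemented control gave another picture. When Soy-10% livers were set against those with the supplement, 2 of the 7 transcripts were lower with edgeR and none was higher, where 17% of 11983 genes passed, 8.47% as lower and 8.51% as higher. The median log2 fold change of the members was -0.11, beside -0.01 over all genes. *mt-Nd2* had 348, 369 and 443 kilocounts on Soy-20% + SAA and 272, 309 and 332 kilocounts on Soy-10%, without overlap, as had 6.22% of genes with a mean of at least 10 counts. It fell by 0.31 (SE 0.089, adjusted p = 0.0299). *mt-Co1* had 18.0, 19.6 and 21.8 kilocounts on Soy-20% + SAA and 14.9, 16.7 and 18.1 kilocounts on Soy-10%, and it fell by 0.26 (SE 0.075, adjusted p = 0.0298) with its ranges touching.

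The other members did not pass. *mt-Nd4* had 397, 523 and 639 kilocounts on Soy-20% + SAA and 388, 447 and 502 kilocounts on Soy-10% (log2 fold change -0.23, 95% interval -0.48 to 0.02, adjusted p = 0.178). *mt-Nd5* had 19.55, 20.0 and 21.55 kilocounts and then 17.4, 18.3 and 20.2 kilocounts (-0.11, interval -0.25 to 0.02, adjusted p = 0.208). *mt-Cytb* had 273, 322 and 368 kilocounts and 262, 304 and 312 kilocounts (-0.11, interval -0.305 to 0.09, adjusted p = 0.441). *mt-Nd1* was the only one of these with a positive value, at 139, 144 and 160.0 kilocounts on Soy-20% + SAA and 142, 160.2 and 172 kilocounts on Soy-10% (0.09, interval -0.07 to 0.26, adjusted p = 0.411). The intervals of *mt-Nd1*, *mt-Nd5* and *mt-Cytb* exclude a change as large as the one the same gene had under casein restriction, while that of *mt-Nd4* includes it.

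Both soy calls ended without the control libraries that stand apart. Without Soy-20% + SAA livers 3 to 6, where 2.54% of genes passed, 0 of 7 members passed, and *mt-Nd2* was at -0.19 (adjusted p = 0.373) and *mt-Co1* at -0.29 (adjusted p = 0.139). With the library slope as a covariate 0 passed as well, where 3.16% of genes passed. Under library totals 1 member passed, where 17.5% of genes passed, and with DESeq2 2 passed, where 19.9% of genes passed. Leaving out a single liver ended the call of *mt-Nd2* in 6 of 12 fits, those without Soy-20% + SAA liver 4 or 6 or Soy-10% liver 1, 2, 3 or 6 (-0.32 to -0.26, adjusted p from 0.0522 to 0.0663). That of *mt-Co1* ended in 5 of 12, those without Soy-20% + SAA liver 3 or 4 or Soy-10% liver 1, 3 or 6 (-0.26 to -0.23, adjusted p from 0.0514 to 0.0689). In this comparison 2 of 9 Kupffer cell markers and 1 of 6 endothelial markers were higher on Soy-10% and 1 of 9 hepatocyte and 1 of 2 cholangiocyte markers lower, and their part was not tested.

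Against the unsupplemented control, Soy-20%, all 7 transcripts had a negative value on Soy-10% and 0 passed with edgeR, where 0.866% of 11897 genes passed, 0.546% as lower and 0.319% as higher. None passed either under library totals (0.975% of genes) or with scaling that left out mitochondrially encoded genes (0.857%). An unadjusted p under 0.05 was reached by 5 of 7. The 7 values ran from -0.28 for *mt-Nd3* to -0.15 for *mt-Nd2*, with a median of -0.22 beside 0.00 over all genes. *mt-Nd5* came nearest, with 20.2, 22.9 and 23.9 kilocounts on Soy-20% and 17.4, 18.3 and 20.2 kilocounts on Soy-10% (log2 fold change -0.27, SE 0.063, adjusted p = 0.055). *mt-Cytb* had 320.2, 351 and 396 kilocounts on Soy-20% and 262, 304 and 312 kilocounts on Soy-10% (-0.26, SE 0.077, adjusted p = 0.141), without overlap in normalized counts, where 1.36% of genes with a mean of at least 10 counts had none. With DESeq2 these 2 genes passed, *mt-Nd5* with an adjusted p of 0.000835 and *mt-Cytb* with 0.0134, where 1.82% of genes passed. None of the libraries that stand apart enters this comparison.

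**Figure D3:**
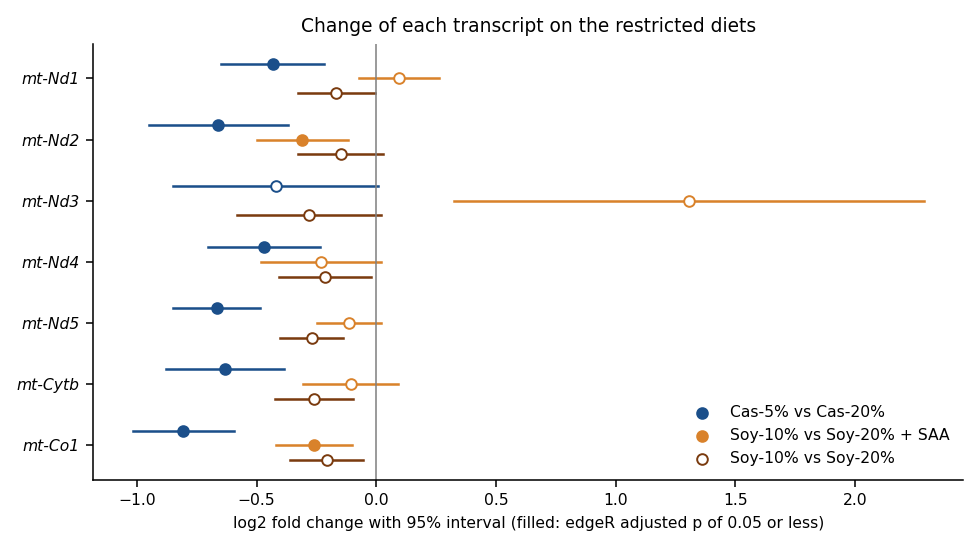
Log2 fold change (x axis) with its 95% interval for each transcript on Cas-5% against Cas-20%, on Soy-10% against Soy-20% + SAA and on Soy-10% against Soy-20%, with filled points for an edgeR adjusted p of 0.05 or less. All values are negative except those of *mt-Nd1* and *mt-Nd3* against Soy-20% + SAA.

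The sulfur amino acid supplement by itself moved 0 of 7 members at the threshold with edgeR (Soy-20% + SAA against Soy-20%, 0.00838% of 11932 genes passed), and 3 had an unadjusted p under 0.05. *mt-Nd1* had 157, 177 and 203 kilocounts on Soy-20% and the 139 to 160.0 kilocounts given above with the supplement (-0.27, interval -0.45 to -0.09, adjusted p = 0.0861). *mt-Nd2* (0.15, interval -0.06 to 0.36) and *mt-Co1* (0.04, interval -0.12 to 0.21) had intervals that include 0. *mt-Nd4* was at 0.01 (interval -0.26 to 0.27), a value whose sign turned under 4 of the alternatives. DESeq2 called *mt-Nd1* (-0.26, adjusted p = 0.0146) and *mt-Nd3* (-1.59, adjusted p = 0.04) lower with the supplement, where 7.32% of genes passed. Without livers 3 to 6 with edgeR 0 of 7 passed, *mt-Nd1* being at -0.31 (adjusted p = 0.672) and *mt-Nd3* at -0.50 (adjusted p = 0.669). In that fit 0 of 12396 genes passed, so the count says nothing particular about the members. Leaving out Soy-20% + SAA liver 1 or 2 brought *mt-Nd3* past the threshold, at -1.95 (adjusted p = 0.0175) and -1.97 (adjusted p = 0.0278).

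*mt-Nd3* followed the libraries that stand apart. Its normalized counts were 1325 and 1377 in Soy-20% + SAA livers 1 and 2, and 451, 127.5, 276 and 274 in livers 3 to 6. In the other 26 libraries they were between 1040 and 3362, so these 4 values lay below all the rest. The ratio to another mitochondrial transcript within the same library moved alike, from 3.34 and 2.71 counts of *mt-Nd3* per 1000 of *mt-Nd4* in livers 1 and 2 to 1.002, 0.236, 0.431 and 0.462 in livers 3 to 6. *mt-Nd3* has the lowest 3′ GC content of the members, a value that 15.04% of nuclear genes reach or fall below. The other members did not drop: the mean of livers 3 to 6 was 1.05 times that of livers 1 and 2 for *mt-Nd1*, 1.14 for *mt-Nd2*, 1.23 for *mt-Nd4*, 0.967 for *mt-Nd5*, 0.962 for *mt-Cytb* and 0.972 for *mt-Co1*, against 0.209 for *mt-Nd3*. Over the same stretch the GC content of *mt-Nd5* was 31.5%. *mt-Nd6*, which is not a member, had 37.0% there and a ratio of 0.6175. Its normalized counts were 57.42 to 121.4 in livers 1 and 2 and 39.32 to 69.7 in livers 3 to 6. Whether base composition has a part in the drop of *mt-Nd3* was not tested.

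Comparisons of *mt-Nd3* with Soy-20% + SAA changed without these libraries. On Soy-10% it had 1254, 1559 and 1909 normalized counts, and its log2 fold change against Soy-20% + SAA was 1.31 (interval 0.33 to 2.29, adjusted p = 0.0626), against 0.22 (adjusted p = 0.591) without livers 3 to 6. Without Soy-20% + SAA liver 1 it was 1.66 (adjusted p = 0.0149) and without liver 2 it was 1.69 (adjusted p = 0.0166), the remaining libraries then being mostly those that stand apart. Against Soy-20%, with 1301, 1958 and 2438 normalized counts, Soy-10% was at -0.28 (interval -0.58 to 0.02, adjusted p = 0.451). With the library slope as a covariate the casein value of *mt-Nd3* was -0.64 (adjusted p = 0.0161), so 7 of 7 members were lower on Cas-5% in that fit, where 22.9% of genes passed.

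**Figure D4:**
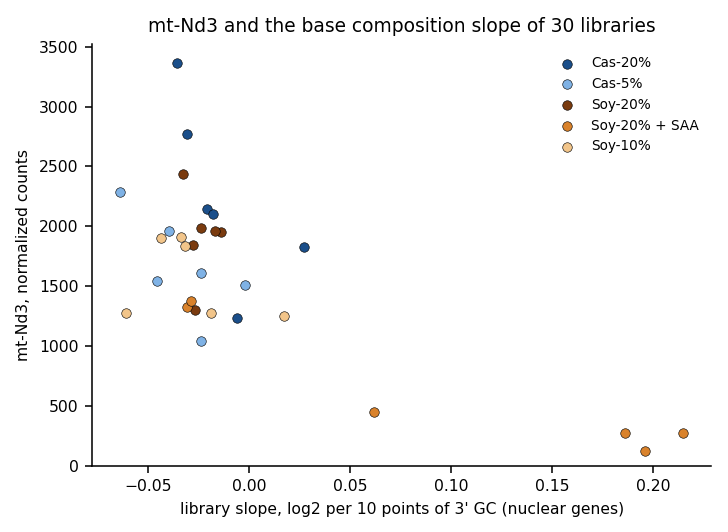
Normalized counts of *mt-Nd3* (y axis) against the slope of each library on 3′ GC content over nuclear genes (x axis, log2 per 10 percentage points) for 30 livers coloured by diet. The 4 livers with slopes from 0.062 to 0.215 have between 127.5 and 451 counts, below the 1040 to 3362 of the other 26.

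Between protein sources at control level, 1 of 7 members passed with edgeR, where 2.43% of 11988 genes passed and 1.42% passed as lower on soy. *mt-Nd5* was lower on Soy-20% + SAA than on Cas-20% by 0.47 on the log2 scale (SE 0.077, adjusted p = 0.0178), and all 6 Cas-20% livers lay above all 6 Soy-20% + SAA livers. Between these 2 diets 2.7% of genes with a mean of at least 10 counts had no overlap. *mt-Cytb* (-0.40, SE 0.111, adjusted p = 0.0581), *mt-Nd1* (-0.29, SE 0.104, adjusted p = 0.105) and *mt-Co1* (-0.28, SE 0.098, adjusted p = 0.0996) missed the threshold. *mt-Nd2* was at -0.12 (interval -0.36 to 0.12) and *mt-Nd4* at 0.09 (interval -0.20 to 0.37), the latter turning to -0.11 without livers 3 to 6. *mt-Nd3* was at -1.81 (SE 0.491, adjusted p = 0.0567), against -0.72 (adjusted p = 0.643) without these livers. Without Soy-20% + SAA liver 1 or 2, *mt-Nd3* (adjusted p = 0.0144 and 0.0247) and *mt-Cytb* (adjusted p = 0.046 and 0.0329) passed. Without these 4 libraries *mt-Nd5* kept its size at -0.43 with an adjusted p of 0.571, where 0.024% of genes passed, and leaving out Soy-20% + SAA liver 6 alone gave -0.48 (adjusted p = 0.0529). With the slope as a covariate 0 members passed (0.0417% of genes), under library totals 1 (3.55%) and with DESeq2 3 (9.43%). Of the red blood cell markers 4 of 5 were lower on Soy-20% + SAA, at 1061 to 1692 CPM against 1393 to 3087, as were 2 of 9 hepatocyte markers, and their part was not tested.

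Between protein sources on the restricted diets, 3 of 7 members were higher on Soy-10% than on Cas-5% with edgeR, where 10.7% of 12041 genes passed, 6.14% as higher and 4.59% as lower. *mt-Nd4* was 1.25-fold higher (log2 fold change 0.32, SE 0.085, adjusted p = 0.0205), and 5 of 6 Soy-10% livers lay above all Cas-5% livers. *mt-Co1* was 1.2-fold higher (0.27, SE 0.077, adjusted p = 0.0322) and *mt-Nd1* 1.18-fold higher (0.24, SE 0.073, adjusted p = 0.0409). *mt-Nd2* (0.23, interval -0.005 to 0.47), *mt-Cytb* (0.12, interval -0.08 to 0.32), *mt-Nd5* (0.08, interval -0.07 to 0.23) and *mt-Nd3* (-0.09, interval -0.42 to 0.24) did not pass, and no member was without overlap, where 5.82% of genes were. Under library totals, which moved the median of all genes to -0.09, 0 of 7 passed, with *mt-Nd4* at 0.25 (adjusted p = 0.0538). *mt-Nd4* passed in all 12 fits that left out a single liver. *mt-Nd1* lost its call in 8 of these, without Cas-5% liver 2, 4, 5 or 6 or Soy-10% liver 1, 2, 4 or 6 (0.21 to 0.24, adjusted p from 0.0554 to 0.0953), and *mt-Co1* in 6, without Cas-5% liver 2 or 6 or Soy-10% liver 2, 3, 4 or 5 (0.23 to 0.27, adjusted p from 0.0522 to 0.0799). Of the stellate cell markers 5 of 6 were lower on Soy-10%, at 390.3 to 449.7 CPM against 467 to 619, as was 1 of 2 cholangiocyte markers, and 1 of 5 red blood cell markers was higher. Their part was not tested.

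The effect of casein restriction was set against that of soy restriction in 1 fit of 24 livers, as the log2 change with casein minus the log2 change with soy against Soy-20% + SAA. It was negative for all 7 members and passed for 5 with edgeR, where 8.69% of 12532 genes passed, 5.49% as lower and 3.2% as higher. *mt-Nd5* differed by -0.56 (SE 0.102, adjusted p = 0.00214), *mt-Co1* by -0.55 (SE 0.125, adjusted p = 0.0095), *mt-Nd1* by -0.53 (SE 0.122, adjusted p = 0.00994), *mt-Cytb* by -0.53 (SE 0.146, adjusted p = 0.0258) and *mt-Nd3* by -1.73 (SE 0.536, adjusted p = 0.044). For *mt-Nd2* (-0.36, adjusted p = 0.168) and *mt-Nd4* (-0.24, adjusted p = 0.344) no difference between the effects was shown. In the same fit 2 of 9 hepatocyte markers passed as lower and 1 of 6 stellate cell markers as higher, 5 of the latter having an unadjusted p under 0.05. Of 5 red blood cell markers none passed, all 5 having an unadjusted p under 0.05 and a median of -0.85, and of 9 Kupffer cell and 6 endothelial markers none passed, 3 and 2 having an unadjusted p under 0.05. Their part was not tested.

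Without Soy-20% + SAA livers 3 to 6, where 2.27% of genes passed, 2 members passed, *mt-Nd5* at -0.52 (adjusted p = 0.0351) and *mt-Nd1* at -0.58 (adjusted p = 0.0471). *mt-Co1* kept its size (-0.52, adjusted p = 0.0848), *mt-Cytb* too (-0.49, adjusted p = 0.167), and *mt-Nd3* moved to -0.64 (adjusted p = 0.364). When the unsupplemented diet took the place of the soy control, a choice made after seeing the data, *mt-Nd5* (-0.40, adjusted p = 0.0174) and *mt-Co1* (-0.60, adjusted p = 0.00317) passed, where 5.99% of genes passed, and *mt-Nd1* was at -0.27 (adjusted p = 0.217). *mt-Nd5* passed in each of these fits. Leaving out a single liver ended the call of *mt-Nd3* in 18 of 24 fits (adjusted p from 0.052 to 0.0748), all but those without Cas-20% liver 2 or 3, Cas-5% liver 1, Soy-20% + SAA liver 1 or 2 or Soy-10% liver 4. That of *mt-Cytb* ended without Cas-5% liver 4 (-0.50, adjusted p = 0.0507).

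Over all 5 diets, 7 of 7 members differed with edgeR, where 43.4% of 12561 genes passed. The smallest adjusted p was 2.65e-08, for *mt-Nd5*, followed by 1.86e-07 for *mt-Co1*, and the largest was 0.00273 for *mt-Nd3*, which did not pass without Soy-20% + SAA livers 3 to 6 (0.101). By mean normalized count Cas-20% was highest for 6 of the 7 and Soy-20% + SAA for *mt-Nd4*, while Cas-5% was lowest for 6 and Soy-20% + SAA for *mt-Nd3*. Most neighbours in these orders could not be separated: of 28 neighbouring pairs 4 passed in the 30-liver fit. These were Cas-20% above Soy-20% for *mt-Nd5* (0.31, adjusted p = 0.00924, 3.41% of genes passed), Cas-20% above Soy-20% + SAA for *mt-Co1* (0.28, adjusted p = 0.0238, 18.6%), Soy-10% above Cas-5% for *mt-Co1* (0.28, adjusted p = 0.0423, 7.17%) and Soy-10% above Soy-20% + SAA for *mt-Nd3* (1.31, adjusted p = 0.00806, 24.5%). The pairs with Soy-20% + SAA include the libraries that stand apart, and in the fits of 2 diets without livers 3 to 6 that of *mt-Nd3* was at 0.22 (adjusted p = 0.591). In the 30-liver fit 6 of 7 members were lower on Cas-5% than on Soy-20% (14.9% of genes passed), the same number as against Cas-20% (24.6%). The 6 Cas-20% livers, at 24.7 kilocounts of *mt-Nd5* or more, lay above every liver of the other diets, of which the highest was a Soy-20% liver at 23.9 kilocounts.

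The transcripts varied together only in part. Of 21 pairs of members, 18 had a positive Pearson r of log2 share over 30 livers, with a median of 0.45 and a range from -0.34 to 0.88, and after removal of the diet means 14 were positive with a median of 0.32. The closest pair was *mt-Nd5* and *mt-Cytb*, neighbours in the genome on either side of *mt-Nd6*, with r = 0.88 over all livers, 0.72 within diets and 0.89 without the 4 libraries that stand apart. *mt-Nd2* and *mt-Co1* followed with 0.74, which was 0.39 within diets. *mt-Nd4* and *mt-Co1* had 0.20 over all livers and -0.53 within diets. These values are descriptions, since all shares come from the same libraries and sum with the rest to a whole.

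The genes outside the mitochondrial genome whose level was most like the summed share, among 6960 genes with a mean of at least 100 counts, were *Hpd* (r = 0.81 over 30 livers, 0.59 within diets), *Nnmt* (0.81 and 0.38), *Gchfr* (0.81 and 0.46), *Ahcy* (0.81 and 0.50) and *Ass1* (0.78 and 0.20). *Hpd* acts in tyrosine breakdown, *Nnmt* methylates nicotinamide, *Gchfr* regulates GTP cyclohydrolase, *Ahcy* hydrolyses S-adenosylhomocysteine and *Ass1* belongs to the urea cycle. Their mean normalized counts were highest on Cas-20% and lowest on Cas-5%, as with *Ahcy* at 1761 and 1050 and *Ass1* at 8297 and 1563. The most opposite were *Kif1b* (-0.85), *Stt3b* (-0.84) and *Dsg2* (-0.83). Genes that follow the same diets will correlate over these livers, and the within-diet values were smaller in size for each of the 8 genes.

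Other mitochondrially encoded genes were lower on Cas-5% as well. Of 13 tested, 8 were lower and none higher, with a median of -0.78. Of all genes 13.3% passed as lower there, and their median was 0.02. The ribosomal RNAs *mt-Rnr1* and *mt-Rnr2*, cut from the start of the same heavy-strand precursor, fell by 0.80 (SE 0.155, adjusted p = 0.0011) and 0.65 (SE 0.145, adjusted p = 0.0031). *mt-Rnr1* had 125, 161 and 242 kilocounts on Cas-20% and 75.5, 99.2 and 119.5 kilocounts on Cas-5%, without overlap in normalized counts. Together they took 6.53% ± 1.25 (SD, n = 6) of the library on Cas-20% and 4.62% ± 0.761 (SD, n = 6) on Cas-5%, and between 4.43% and 4.74% on average on the soy diets. With soy restriction *mt-Rnr1* (-0.26, adjusted p = 0.172) and *mt-Rnr2* (-0.05, adjusted p = 0.826) did not pass. *mt-Nd6*, the only coding gene on the light strand, had 89.1, 127 and 175 normalized counts on Cas-20% and 42.25, 104.3 and 129.6 on Cas-5% (-0.35, SE 0.207, adjusted p = 0.242). It had the lowest levels on Soy-20% + SAA, at 39.3, 60.8 and 121 normalized counts, and was higher on Soy-10% by 0.80 (SE 0.223, adjusted p = 0.0265). Without livers 3 to 6, 0 of 12 other mitochondrially encoded genes passed in that comparison, where 2.54% of all genes passed. Its 3′ end overlaps that of *mt-Nd5* on the opposite strand.

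The transfer RNAs were counted at low levels. *mt-Tp* had a mean of 152 ± 30.3 (SD, n = 6) normalized counts on Cas-20% and 80.15 ± 22.1 (SD, n = 6) on Cas-5%, and fell by 0.90 (SE 0.166, adjusted p = 0.000728). With soy restriction it fell by 0.99 (SE 0.214, adjusted p = 0.00862), from 130 ± 34.9 to 65.7 ± 20.3 (SD, n = 6 each). *mt-Tl2* fell by 1.06 with casein (SE 0.264, adjusted p = 0.00702) and by 1.125 with soy restriction (SE 0.251, adjusted p = 0.00984), at means of 44.9 and 20.9 and of 26.8 and 12.2 normalized counts. *mt-Tv*, *mt-Tl1*, *mt-Tq* and *mt-Tm* were also lower on Cas-5%, and *mt-Tl1* on Soy-10%. *mt-Ti* was lower on soy than on casein with both control (-0.93, adjusted p = 0.0419) and restricted diets (-0.99, adjusted p = 0.0217), at means of 24.02 to 59.6 normalized counts. It overlaps the last 2 bases of *mt-Nd1* and, on the opposite strand, *mt-Tq*.

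Nuclear copies of mitochondrial DNA can draw reads from the members. Of 16 such pseudogenes listed, 7 were in the tables. Of 5 tested 1 was higher and 1 lower on Cas-5%, where 11.6% and 13.3% of all genes were. None passed with soy restriction, where 17% of all genes passed, 2 having an unadjusted p under 0.05 there. *Gm28438* shares 98.0% of the 50-base stretches of *mt-Nd3* and *Gm13340* shares 27.5% of those of *mt-Co1* and 41.7% of those in its last 200 bases, while *Gm13339* shares 53.0% of those in the last 200 bases of *mt-Nd2*. *Gm29216* shares 28.7% of the stretches of *mt-Co1* and 100.0% of those in its last 200 bases, and *Gm28439* shares 62.2% of those of *mt-Nd4* and 0.0% of those in its last 200 bases. The counts of *Gm28438*, *Gm13340* and *Gm13339* were 0.749%, 0.124% and 0.00508% of those of the mitochondrial gene, and *Gm29216* and *Gm28439* were not analysed here. Outside that list, *Gm4076* and *Gm11407* share 4.1% and 3.6% of the stretches of *mt-Nd5*, and 0.0% of those in its last 200 bases. The counts of *Gm4076* were 0.0151% of those of *mt-Nd5*, and *Gm11407* was not analysed here. No annotated nuclear transcript shared a 50-base stretch with *mt-Nd1* or *mt-Cytb*. How reads matching both places were counted is not given in the sources used here. The counts of *mt-Nd3*, *mt-Co1*, *mt-Nd2*, *mt-Nd4* and *mt-Nd5* are thus uncertain to the extent that such reads were left out.

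The nuclear genes for the other subunits of the same complexes were lower on Cas-5% too, with smaller medians. With edgeR 21 of 36 nuclear complex I genes were lower and none higher (median -0.22), as were 7 of 9 of complex III (-0.35), 8 of 12 of complex IV (-0.24), 12 of 18 of ATP synthase (-0.32) and 3 of 4 of complex II (-0.35), which has no mitochondrially encoded subunit. The members had a median of -0.63 in this comparison, where 13.3% of all genes passed as lower. Examples are *Ndufb8* of complex I, which fell by 0.435 (SE 0.078, adjusted p = 0.000582), *Uqcr11* of complex III by 0.52 (SE 0.061, adjusted p = 1.21e-05), *Cox6b1* of complex IV by 0.44 (SE 0.056, adjusted p = 2.39e-05), *Atp5g3* of the ATP synthase ring by 0.60 (SE 0.073, adjusted p = 1.35e-05) and the iron-sulfur subunit *Sdhb* by 0.69 (SE 0.082, adjusted p = 1.18e-05). Under library totals, where 38.6% of all genes passed, fewer passed as lower, at 5 of 36, 4 of 9, 4 of 12, 6 of 18 and 2 of 4, and 1 gene each of complex I, complex IV and ATP synthase was higher. Relative to the median of all genes, the medians of these lists were -0.24, -0.36, -0.25, -0.34 and -0.37 on that scaling, and that of the members was -0.65.

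With soy restriction against Soy-20% + SAA, where 8.51% of all genes passed as higher and 8.47% as lower, these nuclear genes passed in both directions. Of complex I 2 of 36 were higher and 3 lower, of complex III 1 and 2 of 9, of complex IV 2 and 0 of 12, of ATP synthase 0 and 1 of 18 and of complex II 0 and 1 of 4. *Ndufb3* was higher by 0.635 (SE 0.12, adjusted p = 0.00429), *Uqcrfs1*, the Rieske iron-sulfur protein, by 0.38 (SE 0.084, adjusted p = 0.00928) and *Ndufa4* by 0.34 (SE 0.07, adjusted p = 0.00618), while *Atp5c1* (-0.22, SE 0.068, adjusted p = 0.0385) and *Sdhb* (-0.22, SE 0.066, adjusted p = 0.0348) were lower. Without Soy-20% + SAA livers 3 to 6, where 2.54% of all genes passed, 1 complex I gene passed, as higher, and none of the other 4 lists. Between the restricted diets the nuclear genes were higher on Soy-10% in 19 of 36, 8 of 9, 9 of 12, 11 of 18 and 3 of 4 (medians 0.21, 0.25, 0.27, 0.25 and 0.42) and lower in none. The members had 3 of 7 and a median of 0.23 there, where 6.14% of all genes passed as higher. Under library totals the counts of nuclear genes came to 6, 3, 5, 4 and 3, where 13.1% of all genes passed. The comparisons with Cas-5% share its livers.

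**Figure D5:**
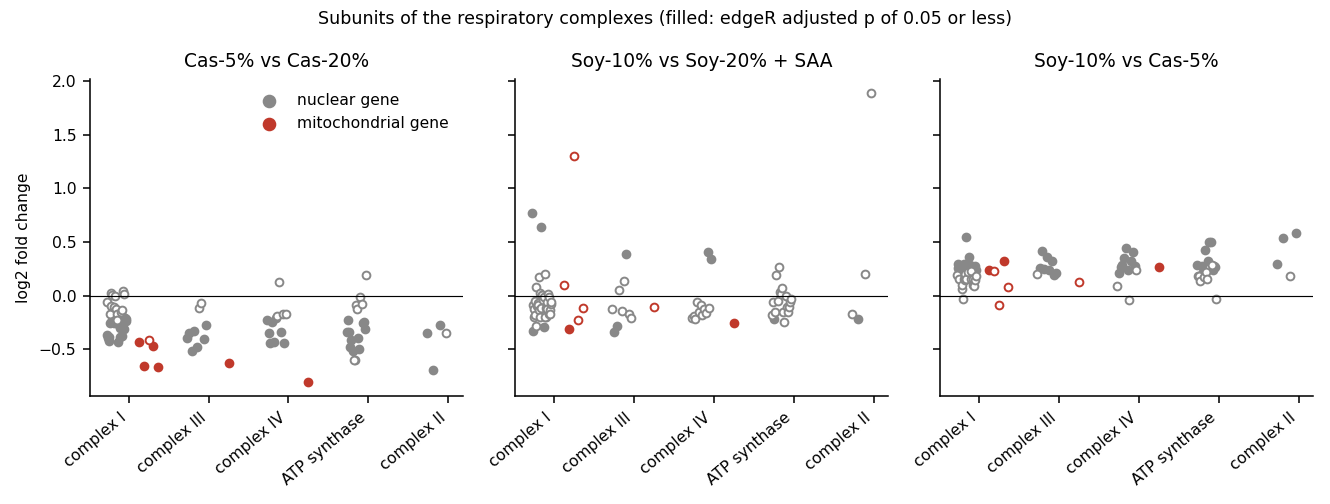
Log2 fold changes (y axis) of nuclear (grey) and mitochondrially encoded (red) subunit genes by complex (x axis, 1 point per gene) for Cas-5% against Cas-20%, Soy-10% against Soy-20% + SAA and Soy-10% against Cas-5%, with filled points for an edgeR adjusted p of 0.05 or less. In the left panel the medians of the nuclear genes lie between -0.35 and -0.22 and the members between -0.81 and -0.42.

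Nuclear genes that transcribe, process and translate mitochondrial RNA are read against the 13.3% of all genes that passed as lower on Cas-5% and the 11.6% that passed as higher. With casein restriction 1 of 16 genes of mitochondrial DNA transcription and maintenance was lower, 4 of 21 of RNA processing and stability, 2 of 12 translation factors and 2 of 9 regulators, and 1 regulator was higher (medians -0.01, -0.11, -0.08 and -0.07). *Mterf2*, which binds the mitochondrial genome, fell by 1.38 (SE 0.241, adjusted p = 0.000468), at 27.3 ± 6.80 normalized counts on Cas-20% and 10.4 ± 3.40 on Cas-5% (SD, n = 6 each). *Polg2* (-0.29, adjusted p = 0.0855) and *Primpol* (-0.28, adjusted p = 0.202) did not pass. *Hsd17b10*, a subunit of the mitochondrial RNase P that also acts in isoleucine breakdown, fell by 1.27 (SE 0.095, adjusted p = 8.36e-08), from 2751 ± 358 to 1128 ± 127 (SD, n = 6 each). *Fastk* (-0.34, adjusted p = 0.00821) and *Ptcd3* (-0.42, adjusted p = 0.0193), a protein of the mitochondrial ribosome, were lower, as were the elongation factors *Gfm1* (-0.48, adjusted p = 0.000264) and *Gfm2* (-0.36, adjusted p = 0.00304), and the initiation factor *Mtif3* was at -0.14 (adjusted p = 0.19). Of the coactivators of nuclear genes for mitochondria, *Ppargc1a* (-0.37, adjusted p = 0.0136) and *Ppargc1b* (-0.48, adjusted p = 0.011) were lower and *Pprc1* was higher (0.80, adjusted p = 0.00866). Under library totals 4 transcription and maintenance genes were higher and 1 lower, 3 and 1 of RNA processing, 1 and 1 of translation factors and 2 and 0 regulators. On that scaling 38.6% of all genes passed and their median moved up to 0.195, so these counts do not single out the lists.

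With soy restriction against Soy-20% + SAA, *Hsd17b10* fell by 0.71 (SE 0.1, adjusted p = 0.000776), from 2692 ± 415 to 1650 ± 140 (SD, n = 6 each). Of all genes 8.51% passed as higher and 8.47% as lower in this comparison. Of the transcription and maintenance genes 5 of 16 were higher and 1 lower, among them *Mgme1* (0.575, adjusted p = 0.012), *Mterf3* (0.96, adjusted p = 0.023) and the single-strand binding protein *Ssbp1* (0.90, adjusted p = 0.0247). Of RNA processing 2 of 21 were higher and 3 lower, with *Trmt10c*, another RNase P subunit, at 1.501 (adjusted p = 0.00553) and *Pnpt1* at 0.815 (adjusted p = 0.0293). *Gabpa*, a regulator, was higher (0.62, adjusted p = 0.0383), *Gabpb1* (0.34, adjusted p = 0.0584) and *Ppargc1b* (-0.39, adjusted p = 0.0586) did not pass, and of the translation factors *Mtif3* was lower (-0.25, adjusted p = 0.0362) while *Guf1* (-0.275, adjusted p = 0.083) and *Mrrf* (-0.22, adjusted p = 0.131) did not pass. Without livers 3 to 6, 0 of 16 transcription and maintenance genes and 1 of 21 RNA processing genes, as lower, passed. In that fit 2.54% of all genes passed.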

How the data were processed

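3′ mRNA libraries (QuantSeq 3′ FWD) were prepared from whole liver of 30 mice, 6 per diet. Per the labels, reads were processed with the QuantSeq pipeline on the Bluebee platform for GRCm38. The aligner, counter, annotation, strand setting and treatment of multi-mapping reads are not given in the sources used here. The deposited raw counts are whole reads per gene, and the deposited normalized signal is the same counts divided by a DESeq2 size factor per library, by the authors. The tables held 14173 genes, with totals of 7694015 to 14565542 counts per library.

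Counts were tested with edgeR 4.0.16 (R 4.3.3): TMM scaling, filterByExpr and quasi-likelihood F tests between the diets compared, with Benjamini-Hochberg adjustment over all genes tested and a threshold of 0.05. All 7 members passed the filter in each fit. Alternatives were DESeq2 1.42.0, library totals, scaling without mitochondrially encoded genes, no filter, all 30 livers, a replicate block, the library slope on 3′ GC content as a covariate, and fits without Soy-20% + SAA livers 3 to 6 or single livers. Each library is a separate mouse. Members, gene lists and tests were chosen with earlier results of these data known. Nuclear list genes named are those with the smallest p in a list. The fit was tested on simulated data.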

Additional observations from a re-analysis of the deposited data

Results flagged for a closer look

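The highest Soy-20% liver for *mt-Co1*, liver 6, had 22316 normalized counts and lay apart from the other 5, of which the nearest had 19138. It was the only such value among 40 groups of 6 livers examined, and chance would give about 1 in 20. The effects of casein and soy restriction differed by the test of the difference itself, as casein minus soy on the log2 scale with edgeR, for *mt-Nd1* (-0.53), *mt-Nd3* (-1.73), *mt-Nd5* (-0.56), *mt-Cytb* (-0.53) and *mt-Co1* (-0.55), in fits that include the Soy-20% + SAA libraries that stand apart.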

How the results depend on the processing

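Percents in brackets here are the shares of all genes that passed in the same fit. None is given for the block or for fits without single livers. The casein count of members, 6 lower (24.9%), was 6 to 7 when single livers were left out. With soy restriction 2 members passed (17%), against 1 under library totals (17.5%) and 1 as higher (*mt-Nd3*) with the replicate block. The 30-liver fit gave 3 (*mt-Nd3* higher at 1.31 and 2 lower, 24.5%). With the slope covariate 0 passed (3.16%), and without Soy-20% + SAA livers 3 to 6 also 0 (2.54%). When single livers were left out 0 to 4 passed. Against Soy-20% none passed (0.866%), against 2 with DESeq2 (1.82%), 1 with the slope covariate (0.689%) and 0 without any single liver. For the supplement none passed (0.00838%), against 2 with DESeq2 (7.32%), 2 in the 30-liver fit (14.3%) and 0 to 1 without single livers. Between control diets 1 passed (2.43%), against 3 with DESeq2 (9.43%) and 5 in the 30-liver fit (18.6%). It was 0 with the slope covariate (0.0417%), 0 without livers 3 to 6 (0.024%) and 0 to 3 without single livers. Between restricted diets 3 passed (10.7%), against 0 under library totals (13.1%), 1 in the 30-liver fit (7.17%) and 1 to 3 without single livers. For the difference of effects 5 passed (8.69%), against 3 under library totals (12.7%) and 3 with the slope covariate (4.48%). It was 2 without livers 3 to 6 (2.27%), 2 with Soy-20% as control (5.99%) and 3 to 5 without single livers. Samples of one number do not share a source, and the block gave 6, 1, 0, 0, 1, 2 and 5 members in these 7 comparisons. *mt-Nd4* with the supplement turned from 0.01 to -0.004439 under library totals, -0.002369 with the block, -0.20 with the slope covariate and -0.19 without livers 3 to 6, and ran from -0.0538 to 0.0717 without single livers. Between control diets it turned to -0.12 with the slope covariate and -0.11 without livers 3 to 6. *mt-Nd3* between restricted diets ran from -0.195 to 0.0248 without single livers. The cause of these changes was not tested. The 30-liver fits include Soy-20% + SAA livers 3 to 6. As a percent of nuclear counts the summed members were 17.3 on Cas-20% and 12.4 on Cas-5%, 16.01 on the unsupplemented soy diet, 15.4 with the supplement and 14.02 on Soy-10%, and as a share without the 10 most abundant nuclear genes they were 16.3, 12.7, 15.55, 15.3 and 13.98 in that order. Depth did not limit 6 of the members, while *mt-Nd3* had as few as 133 counts.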
